A study of Mus musculus with 8 samples.

Results

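The receptors for prostanoids, together with the genes that carry prostaglandins into cells and break them down, were examined in mouse skeletal cells sorted from fracture callus. Members were taken by name, without use of any measured value, as all array probe sets annotated with a single gene symbol equal to Ptger1, Ptger2, Ptger3, Ptger4, Ptgfr, Ptgir, Tbxa2r, Ptgdr2, Slco2a1 or Hpgd. This gave 21 probe sets of 10 genes, out of 45037 probe sets and 18193 named genes on the arrays, and 15 of the 21 belong to the 8 receptor genes. All cells came from male C57/Bl6 mice aged 10 to 12 weeks that had received a bicortical femoral fracture stabilised with an intramedullary pin, and the labels date the callus to day 7. Skeletal stem cells (SSCs, 4 arrays) were sorted for CD51 and CD200 and against CD45, Ter119, Tie2, 6C3, Thy1 and CD105. Bone-cartilage-stroma progenitors (BCSPs, 4 arrays), which lie downstream of SSCs, were sorted for CD51 and CD105 and against CD45, Ter119, Tie2, 6C3 and Thy1. Each of 4 experiments gave 1 array of each population from 10000 sorted cells that were not cultured. No unfractured or drug-treated group was analysed here, so the scores describe callus cells only.

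Prostanoids are short-lived lipids that cyclooxygenases and a set of terminal synthases make from arachidonic acid. They leave the cell and act nearby on G protein-coupled receptors. PGE2 acts on the EP receptors, PGI2 on IP, PGF2α on FP, thromboxane A2 on TP, and PGD2 on DP1 and DP2. The transporter encoded by Slco2a1 takes prostaglandins up from outside, and hydroxyprostaglandin dehydrogenase, encoded by Hpgd, oxidises them to products with little receptor activity. In bone, PGE2 acting through EP2 and EP4 is known for promoting bone formation in rodents.

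Values are activity scores in points. The score runs from about -100 (inactive) to +100 (active), and 0 is a threshold that Gene Expression Commons sets for each probe set from the values it takes across many public mouse arrays. It is not a log value, so no fold changes were computed, and because every probe set has its own scale the scores do not rank genes by amount of mRNA. A score below 0 does not show that a transcript was missing. As a guide to what silent genes score in these libraries, 63 probe sets of 44 genes from other tissues (retina, brain, liver, pancreas, germ line and others) were read on the same arrays, and their 95th percentile lay between -18.6 and -8.46 on the 8 arrays.

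Of the 10 genes, Hpgd alone scored above 0 on all 8 arrays by its best probe set, where 25.0% of all named genes did so. By probe set, 2 of 21 members were above 0 on all arrays, both of Hpgd, against 16.1% of all probe sets. A further 17 of 21 were below 0 on every array, against 49.5% of all probe sets. The median of the members' mean scores was -57.8, compared with -31.1 for all probe sets and -53.7 for the silent genes. Among the receptors, 13 of 15 probe sets were below 0 on all arrays, and 7 of their 120 single values were above 0. The 7 came from Ptger1 (6) and Ptgdr2 (1). In all, 13 of the 120 receptor values exceeded the 95th percentile of the silent genes on their own array. Each array holds the RNA of all cells of a sort, so expression in few cells and low expression in all cells cannot be told apart.

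**Figure D1:**
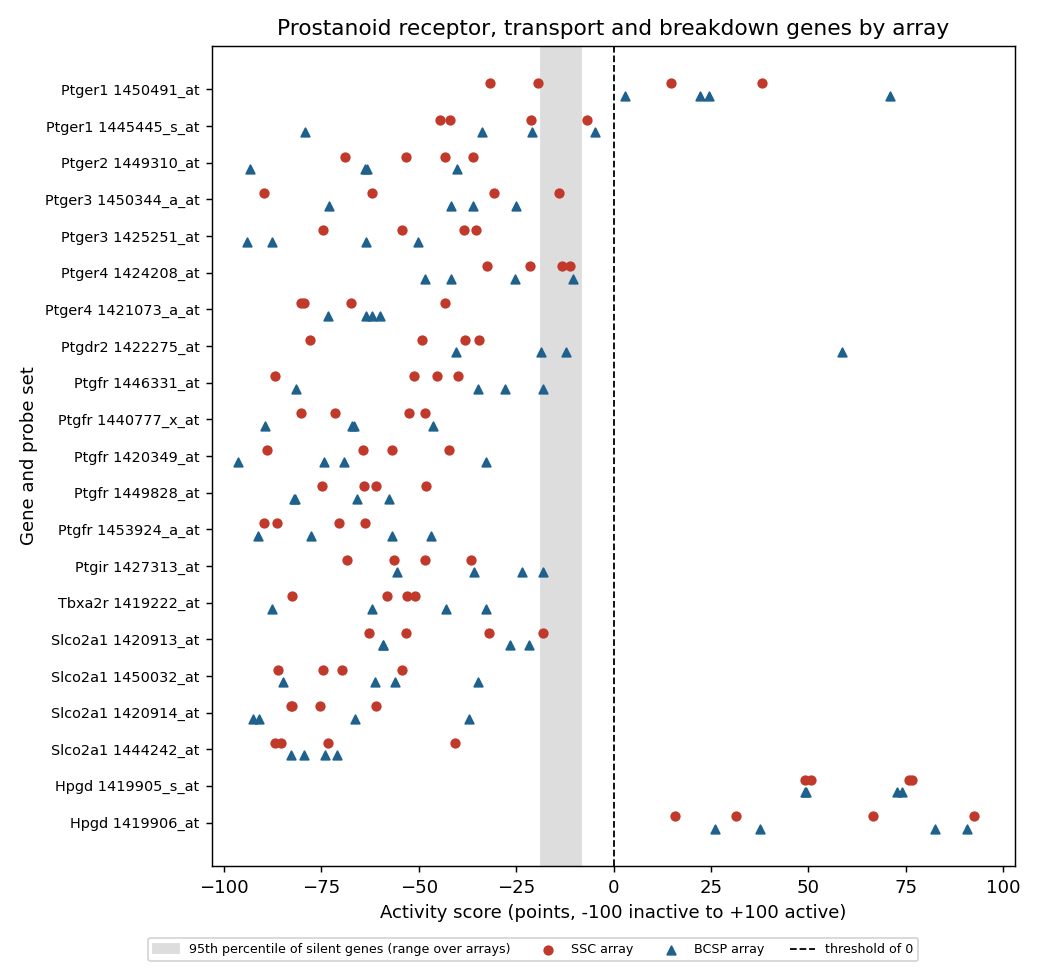
Activity score (points, horizontal axis) of each of the 21 probe sets on 4 SSC arrays (circles) and 4 BCSP arrays (triangles). The dashed line is the threshold of 0 and the grey band is the range over arrays of the 95th percentile of silent genes. Both Hpgd probe sets lie right of 0 on all 8 arrays, Ptger1 1450491_at lies on both sides, and most other points lie left of the band.

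The PGE2 receptors were the largest group. Ptger4 encodes EP4, which raises cAMP through Gs. Its probe set 1424208_at scored -11.2, -32.4, -13.3 and -21.5 on the SSC arrays of experiments 1 to 4 and -25.3, -41.7, -48.4 and -10.4 on the BCSP arrays. All 8 values were below 0, 2 of them were above the 95th percentile of the silent genes, and the populations overlapped. The other probe set of Ptger4, 1421073_a_at, was lower on every array, at -80.3 to -43.2, and the gap between both was 15.2 to 67.1 points. Ptger2, which encodes EP2, also coupled to Gs, had 1 probe set, 1449310_at, with -43.4, -53.3, -68.9 and -36.1 in SSCs and -93.3, -40.2, -63.9 and -63.2 in BCSPs. It stayed below the 95th percentile of the silent genes on all 8 arrays.

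Ptger3 encodes EP3, which lowers cAMP through Gi. Its probe set 1450344_a_at scored -89.7, -30.8, -14.0 and -62.0 in SSCs and -24.9, -36.1, -73.1 and -41.9 in BCSPs, and 1425251_at scored -38.3, -35.3, -54.3 and -74.5 in SSCs and -87.6, -50.1, -63.5 and -94.1 in BCSPs. Both probe sets were inactive throughout, but they did not follow one another: on the SSC array of experiment 1, the first gave its lowest value and the second one of its highest.

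Ptger1 encodes EP1, which raises intracellular calcium, and it was the receptor gene with the most values above 0. Its probe set 1450491_at scored -31.8, 38.2, 14.7 and -19.3 on the SSC arrays of experiments 1 to 4 and 70.8, 22.1, 2.93 and 24.6 on the BCSP arrays. It was thus above 0 on 2 of 4 SSC arrays and on 4 of 4 BCSP arrays. The other probe set, 1445445_s_at, scored -6.75, -21.2, -42.1 and -44.6 in SSCs and -4.85, -33.9, -20.9 and -79.2 in BCSPs, and was above 0 on none. Probe sets of Ptger1 gave opposite calls on 6 of 8 arrays, with gaps up to 104 points. The Ptger1 scores are therefore uncertain.

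Upstream sequence of the Gs-coupled PGE2 receptors and of Hpgd is given here because these genes span the family, from receptors that scored inactive to the gene that scored active on all arrays. Shown are the 250 bases before the annotated start, read 5′ to 3′ on the gene's strand from RefSeq (GRCm38.p6). Capitals mark each GC box (GGGCGG on either strand, so also CCGCCC).
Hpgd, chr8:56294302-56294551, plus strand: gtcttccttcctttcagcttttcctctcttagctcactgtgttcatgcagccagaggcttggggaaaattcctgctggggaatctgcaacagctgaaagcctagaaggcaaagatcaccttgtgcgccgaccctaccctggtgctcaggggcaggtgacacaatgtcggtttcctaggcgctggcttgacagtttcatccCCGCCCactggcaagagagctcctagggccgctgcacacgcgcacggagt
Ptger4, chr15:5244188-5244437, minus strand: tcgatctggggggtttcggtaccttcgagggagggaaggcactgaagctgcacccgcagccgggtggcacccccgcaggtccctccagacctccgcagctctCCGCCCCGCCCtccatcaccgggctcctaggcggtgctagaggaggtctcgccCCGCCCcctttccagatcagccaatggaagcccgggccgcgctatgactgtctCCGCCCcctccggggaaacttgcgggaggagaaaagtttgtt
Ptger2, chr14:44987861-44988110, plus strand: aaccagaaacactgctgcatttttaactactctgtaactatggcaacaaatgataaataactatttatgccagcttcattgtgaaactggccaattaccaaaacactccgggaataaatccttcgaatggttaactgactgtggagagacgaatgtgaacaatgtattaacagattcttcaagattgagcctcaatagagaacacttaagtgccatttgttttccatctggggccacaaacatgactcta
RefSeq promoters were matched for 9 of the 10 genes, 10 promoters in all, and Ptger1 had no entry. The GC box was present in 32.7% of 32851 promoters of the same length. It occurred 4 times in Ptger4, 3 times in Ptger3, 2 times in Ptgir, once each in Hpgd, Ptgdr2, Ptgfr and Slco2a1, and not in Ptger2 or Tbxa2r. GC content was 66.8% in Ptger4, 56.8% in Hpgd and 38% in Ptger2, against a median of 52.4% over all promoters. The half-site of the cAMP response element, TGACG on either strand, was found in 1 of 2 Tbxa2r promoters and in 17.8% of all promoters. The full element TGACGTCA (1.55% of all, and each copy also holds the half-site) and the AP-1 site TGANTCA (6.75% of all) were found in none of the members' windows. A TATA box, TATAAA on either strand, was found in Slco2a1 and in 12.4% of all. These are letter matches and the arrays hold no measurement at promoters.

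The member genes for receptors of the other prostanoids also scored below 0, with a single value of Ptgdr2 as exception. Ptgir, which encodes the Gs-coupled IP receptor for PGI2, scored -48.4, -36.5, -56.3 and -68.4 in SSCs and -18.0, -55.5, -35.9 and -23.5 in BCSPs. Tbxa2r, which encodes the thromboxane receptor TP, scored -58.0, -53.1, -82.5 and -51.0 in SSCs and -43.0, -62.0, -87.6 and -32.7 in BCSPs. The 2 populations overlapped for both genes.

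Ptgfr encodes FP, a calcium-mobilising receptor for PGF2α, and had 5 probe sets, the most of any member. All 5 were below 0 on every array, from -96.5 to -18.0. The probe set with the highest mean, 1446331_at, scored -86.9, -39.8, -45.3 and -51.2 in SSCs and -81.6, -27.8, -34.7 and -18.0 in BCSPs, with its 2 lowest values on the arrays of experiment 1.

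Ptgdr2 encodes DP2 (also called CRTH2), a Gi-coupled receptor for PGD2 best known from eosinophils, basophils and T helper cells. Its probe set 1422275_at scored -49.3, -77.9, -34.6 and -38.1 in SSCs and 58.6, -18.6, -40.4 and -12.3 in BCSPs. The BCSP array of experiment 1 was the single array above 0. Of the silent probe sets, 1 scored above 0 on that array and 1 on the BCSP array of experiment 2. Marker genes of mast cells, basophils and eosinophils were below 0 on that array, 10 of 10 by their best probe sets; over all arrays Tpsb2, a mast cell tryptase, was above 0 once, on the SSC array of experiment 1 (39.0). The median of this marker list was -61.4 to -48.5 on the SSC arrays and -76.8 to -42.9 on the BCSP arrays. Of 7 T cell markers, Cd8a scored above 0 on all arrays by 1 probe set and below 0 on all arrays by its other 4, and the remaining 6 genes were below 0 throughout. Ptgdr2 overlaps Ccdc86 in the RefSeq annotation of GRCm38.p6, and the 3 Ccdc86 probe sets were at -74.5 to -19.7 on the BCSP array of experiment 1.

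The gap between both populations in experiment 1 exceeded 100 points for Ptger1 1450491_at (-31.8 against 70.8) and for Ptgdr2 (-49.3 against 58.6). A gap of this size occurred in 1.29% of all probe sets in experiment 1 and in 0.346% to 0.455% in the other 3 experiments, where no member reached it. Without the BCSP array of experiment 1, the mean difference, SSC minus BCSP, moved from -29.6 to -16.1 points for Ptger1 1450491_at and from -46.8 to -26.2 points for Ptgdr2. Without both arrays of experiment 1 it was -5.33 points for Ptger1 1450491_at and -26.4 points for Ptgdr2.

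Uptake and breakdown were opposite on this scale. Slco2a1, the prostaglandin uptake transporter, had 4 probe sets, all below 0 on every array and ranging from -92.6 to -18.1. The highest of them, 1420913_at, scored -32.0, -18.1, -62.7 and -53.3 in SSCs and -26.7, -59.3, -59.2 and -21.7 in BCSPs. Hpgd, in contrast, was above 0 with both probe sets on all 8 arrays. Its probe set 1419905_s_at scored 75.9, 50.8, 49.1 and 76.5 in SSCs and 72.9, 49.3, 49.0 and 74.0 in BCSPs. These values placed it between the 84.4th and the 93.4th percentile of all probe sets of its array. The second, 1419906_at, scored 92.6, 15.9, 31.4 and 66.5 in SSCs and 90.7, 37.7, 26.1 and 82.4 in BCSPs. Its percentiles ran from 76.6 to 97.5. These percentiles rank scores, not amounts of mRNA.

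Both Hpgd probe sets differed more between experiments than between populations: values were high in experiments 1 and 4 and lower in experiments 2 and 3 (see the plot of scores by experiment). Means of both arrays of an experiment were 74.4, 50.0, 49.1 and 75.2 for 1419905_s_at and 91.6, 26.8, 28.8 and 74.4 for 1419906_at in experiments 1 to 4. Within an experiment, SSC and BCSP differed by 0.09 to 3.04 points for the first. A moderated F test between experiments with limma, fitted to all probe sets after these values had been seen, gave F = 30.8 and an adjusted p of 0.0489 for 1419906_at, and an adjusted p of 0.0567 for 1419905_s_at. The test called 1 of 21 members, where 0.995% of all probe sets were called. Median scores of the hybridization controls were 62.5 and 70.9 in experiment 1, 32.4 and 41.8 in experiment 3 and between -24.2 and 3.77 in experiments 2 and 4. The score of the 3' actin control minus that of the 5' control was 59.6 and 64.9 in experiment 3 and 23.1 to 44.2 in the others. For Gapdh the same difference was 21.3 and 21.6 in experiment 1, 25.9 and 44.2 in experiment 2, 54.7 and 49.1 in experiment 3 and 53.9 and 71.9 in experiment 4. The part of these control scores in the Hpgd values was not tested. Experiment is here the number given in the labels. Differences in mice, surgery, sort, amplification or hybridization between these numbers cannot be told apart.

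**Figure D2:**
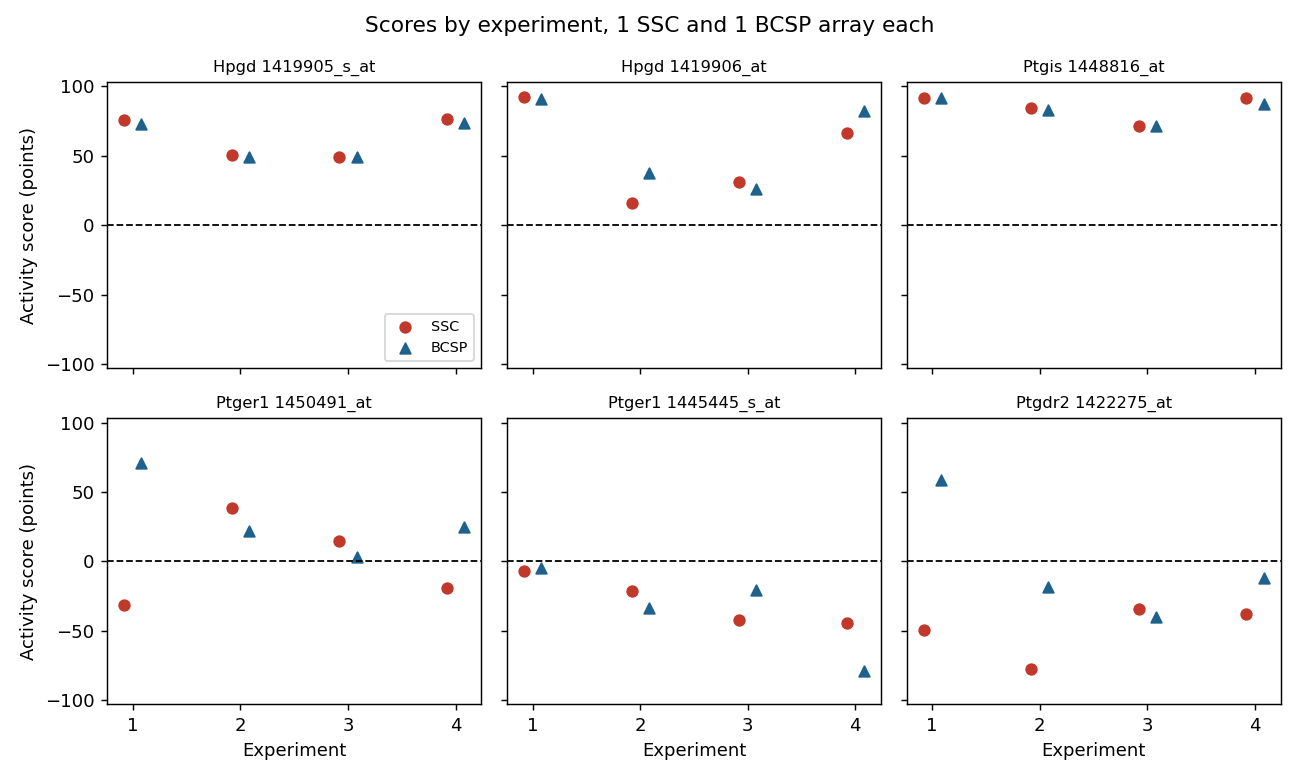
Activity score (points, vertical axis) by experiment (horizontal axis) for Hpgd, Ptgis, Ptger1 and Ptgdr2 probe sets, with 1 SSC array (circle) and 1 BCSP array (triangle) in each experiment and the threshold of 0 dashed. For Hpgd and Ptgis both symbols of an experiment lie within 21.8 points of each other, while for Ptger1 1450491_at and Ptgdr2 they lie over 100 points apart in experiment 1.

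Hpgd was the gene whose probe sets moved together from array to array. Their correlation was r = 0.93 over 8 arrays, which share their RNA. Over the 19 pairs of probe sets within the other genes with more than 1, r ran from -0.64 to 0.69 and was positive in 11. In all, 6 genes had more than 1 probe set. For 5 of them (Ptger3, Ptger4, Ptgfr, Slco2a1 and Hpgd) all probe sets gave the same call of active or inactive on all arrays, and Ptger1 was the exception. The other 4 (Ptger2, Ptgir, Tbxa2r and Ptgdr2) rest on 1 probe set each.

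Outside the family, the 3 genes whose scores followed Hpgd 1419905_s_at most closely among 34943 named probe sets were Zfp36 (r = 0.98), which encodes a protein that promotes decay of inflammatory mRNAs, the netrin receptor gene Unc5b (r = 0.98) and Trp53inp2 (r = 0.98), over the 8 arrays. Zfp36 scored 76.2 to 92.2 and Unc5b 50.6 to 89.1, whereas Trp53inp2 scored -17.9 to 12.8. Of the genes that make or export prostanoids, only Ptgis, Ptgs2 and Abcc4 were compared with this Hpgd probe set. Ptgis followed it with r = 0.83, whereas r was 0.17 and 0.41 for the 2 probe sets of Ptgs2 and -0.34 for the exporter gene Abcc4. Because this Hpgd probe set varied mainly by experiment, these r values rest largely on 4 experiments. Shared regulation was not tested.

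SSCs and BCSPs were then compared. This contrast asks whether receptors, uptake or breakdown change between the stem cell and its progenitor. By limma over all probe sets with Benjamini-Hochberg adjustment at 0.05, 0 of 21 members were called, as were 0% of all probe sets. The adjusted p was 1 for each member, and the unadjusted p was under 0.05 for 0 of 21 members and for 1081 of all probe sets. The members' differences, SSC minus BCSP, were positive for 10 and negative for 11 probe sets, with a median of -2.85 points against -0.605 over all. Every one of the 6 genes with more than 1 probe set had differences of both signs among them. In no member did all 4 SSC arrays lie above or below all 4 BCSP arrays, which 0.653% and 0.773% of all probe sets did.

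The largest difference was that of Ptgdr2, with -49.96 ± 19.6 in SSCs and -3.18 ± 42.9 in BCSPs (SD, n = 4 each), a difference of -46.8 points with a 95% confidence interval of -95.4 to 1.82. Ptger1 1450491_at followed with 0.463 ± 31.9 and 30.1 ± 28.8 (SD, n = 4 each) and an interval of -74.6 to 15.3. For Hpgd the scores were 63.1 ± 15.2 and 61.3 ± 14.0 by 1419905_s_at, with a difference of 1.77 points and an interval of -19.2 to 22.7. By 1419906_at they were 51.6 ± 34.6 and 59.2 ± 32.1, with an interval of -51.6 to 36.4. These intervals ignore the experiment. With experiment as a block, they were -5.72 to 9.26 for 1419905_s_at and -22.0 to 6.75 for 1419906_at.

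Intervals of the inactive receptors were also wide. They ran from -17.7 to 41.5 points for Ptger4 1424208_at, from -13.6 to 43.0 for Ptger2, from -46.7 to 8.42 for Ptgir and from -34.6 to 25.0 for Tbxa2r. Over all 21, the standard error of the difference was 8.96 to 21.6 points in this fit, which did not match arrays by experiment. Differences of this order were not detectable by it, and larger ones were not called either. For scale, Eng, which encodes CD105 and separates both sorts, scored -45.6 ± 14.4 in SSCs and 12.8 ± 24.9 in BCSPs (SD, n = 4 each) by 1432176_a_at, and it too had an adjusted p of 1.

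Matched by experiment, SSCs scored above BCSPs in 4 of 4 experiments for 2 members, which held for 5.43% of all probe sets, and below in 4 of 4 for 1 member, which held for 7.24%. These were Ptger3 1425251_at (9.20 to 49.3 points higher), Hpgd 1419905_s_at (0.09 to 3.04 points higher) and Ptgfr 1446331_at (lower). For Ptger3, the interval with experiment as a block was 0.622 to 45.8 points, with an adjusted p of 0.933 in limma, and its other probe set differed in the opposite direction by -5.13 points. With the block, 0% of all probe sets were called.

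**Figure D3:**
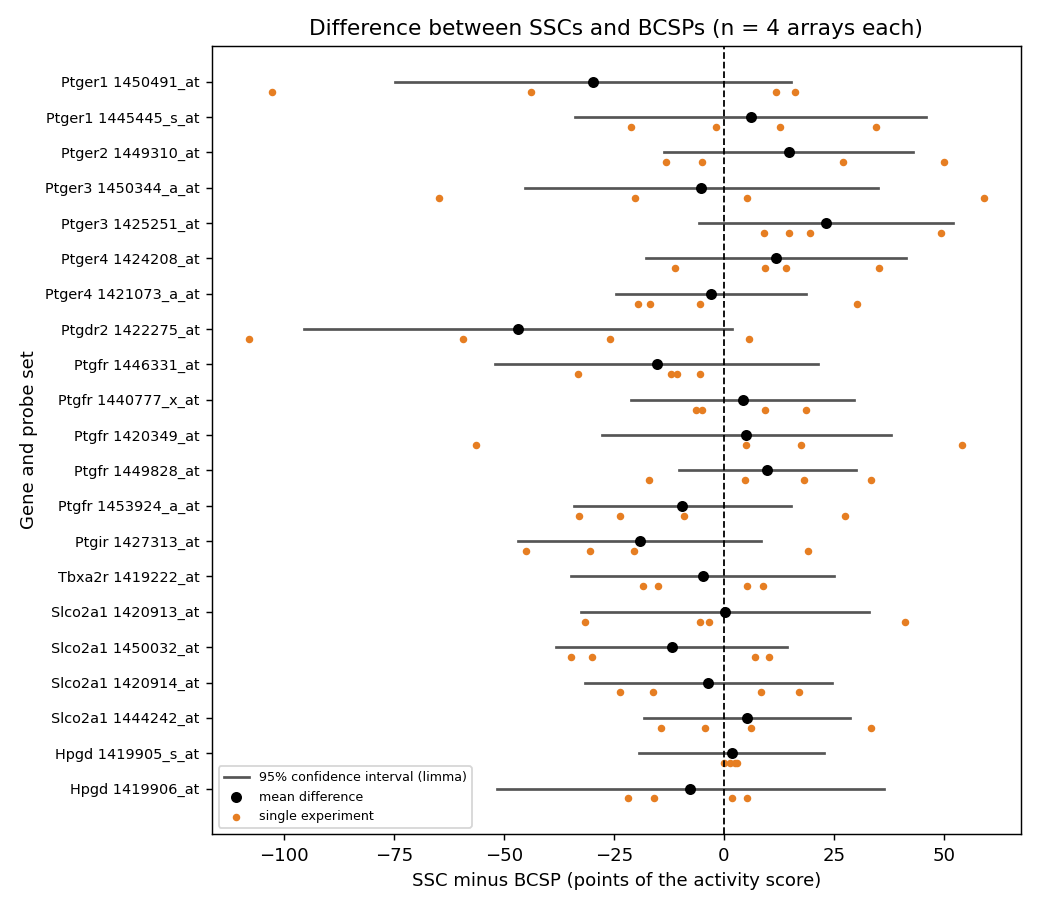
Difference in activity score, SSC minus BCSP (points, horizontal axis), for each of the 21 probe sets. Black points are means of 4 against 4 arrays, grey lines are 95% confidence intervals from limma, and small orange points are the 4 single experiments. All 21 intervals include 0.

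The question which cyclooxygenase products these cells could sense was taken product by product, with the synthases beside the receptors. Cyclooxygenase-2, encoded by Ptgs2, scored 92.3 to 95.4 by 1417262_at and 64.3 to 72.8 by 1417263_at on the 8 arrays, and Pla2g4a, whose product releases arachidonic acid, scored 87.3 to 97.2. Of 10 measured genes of prostanoid synthesis, 4 were above 0 on all arrays (Pla2g4a, Prxl2b, Ptgis and Ptgs2), 3 on some (Cbr1, Ptges and Ptges2) and 3 on none (Hpgds, Ptgds and Tbxas1). Of all named genes, 25.0% were above 0 on all arrays. Ptges3 and Akr1b3, also on the synthesis list, had no probe set with a single gene symbol and were not measured. Synthases of PGE2 and PGF2α are therefore not all covered.

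For PGE2, the measured synthase genes Ptges and Ptges2 were above 0 on 2 and 4 arrays, both arrays of experiment 2 for Ptges (19.8 and 35.9) and those of experiments 1 and 2 for Ptges2. Receptors scored above 0 on part of the arrays by 1 probe set of Ptger1, and on none by Ptger2, Ptger3 and Ptger4. For PGI2, the synthase gene Ptgis was high on all arrays, at 71.6 to 91.9, while its receptor gene Ptgir was at -68.4 to -18.0. PGI2 is also a proposed ligand of the nuclear receptor encoded by Ppard, which was above 0 on 1 array and had a mean of -19.2.

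For PGF2α, Prxl2b, which encodes a PGF synthase, scored 25.5 to 42.9, and Cbr1, whose product can convert PGE2 to PGF2α, was above 0 on 1 array. The receptor gene Ptgfr was below 0 on all. Ptgfrn, whose product binds FP and limits its binding of PGF2α, scored 89.7 to 96.2 by 1 probe set and 6.76 to 86.6 by another. For PGD2, the synthase genes Ptgds and Hpgds were below 0 on all arrays, and the receptor genes Ptgdr (-65.8 to 18.4) and Ptgdr2 were each above 0 on 1 BCSP array, of experiments 2 and 1 respectively. For thromboxane, the synthase gene Tbxas1 (-95.6 to -11.6) and the receptor gene Tbxa2r were both below 0 on all arrays.

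By these scores, then, no prostanoid had a receptor gene above threshold on all 8 arrays. PGE2 was the one product with a receptor probe set above threshold on more than 1 array. That probe set, Ptger1 1450491_at, was above it on 2 of 4 SSC and 4 of 4 BCSP arrays. The other Ptger1 probe set was above it on no array, so the Ptger1 scores stay uncertain. Receptors can act at low mRNA levels, and protein was not measured.

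**Figure D4:**
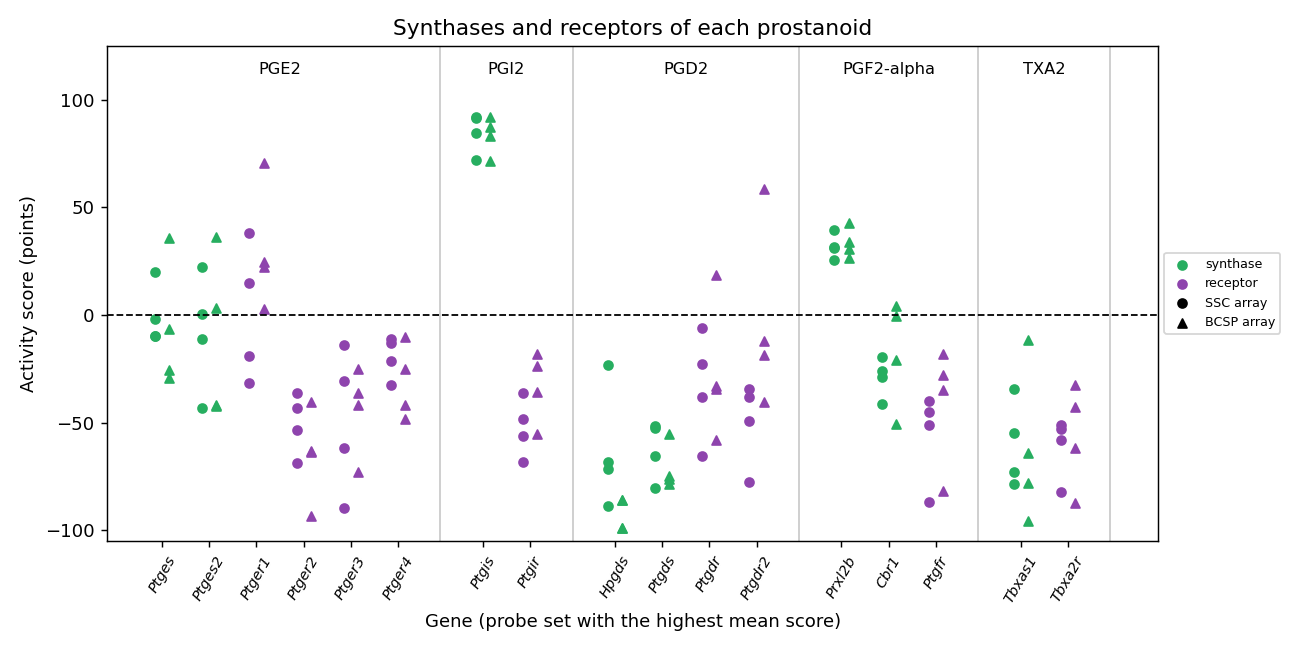
Activity score (points, vertical axis) of the measured synthase genes (green) and receptor genes (purple) of each prostanoid, on 4 SSC arrays (circles) and 4 BCSP arrays (triangles), each by its highest scoring probe set on average. Ptgis (71.6 to 91.9) and Prxl2b (25.5 to 42.9) lie above 0 on all arrays, and no receptor gene does.

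Genes for export and later breakdown were mixed. Abcc4, which encodes the prostaglandin exporter MRP4, scored 38.1 to 62.6, and Ptgr2, which encodes a reductase that acts after Hpgd, scored 47.4 to 71.0 by its best probe set and lower by the other 5. Slco2b1 was above 0 on 4 arrays and Ptgr1, another reductase of the same step, on 1. The transporter genes Slco3a1 and Slco4a1 and the steroid dehydrogenase gene Akr1c18 were above 0 on none. Thus 2 of 7 measured genes of this list were active on all arrays, Abcc4 and Ptgr2, against 25.0% of all named genes. Ptgr3, also on the list, was not measured.

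Downstream of the receptors, the G protein genes were mostly active and the cAMP pathway genes were mixed. By their best probe sets, 25.0% of all named genes were above 0 on all arrays. Of 8 G protein alpha subunit genes, 7 were above 0 on all arrays, among them Gnai3 (74.4 to 96.0), Gna13 (67.8 to 90.01), Gna11 (34.7 to 92.9) and Gnai1 (38.9 to 57.3). The same held for 3 of 9 adenylate cyclase genes (Adcy3, Adcy2 and Adcy9), for 1 of 10 genes of protein kinase A and CREB (Creb1, 56.6 to 89.2), and for 4 of 9 cAMP phosphodiesterase genes, led by Pde8a (84.0 to 96.2) and Pde4b (28.7 to 78.0). In the phospholipase C and calcium list 5 of 10 were active throughout, among them Itpr2, Nfatc1 and Nfatc3, and Plcb1 at 50.3 to 70.4. Receptor kinases and arrestins, which switch such receptors off, had 0 of 6 measured genes active on all arrays, with Grk6, the highest of them, at -13.9 to 16.2. The receptor kinase gene Grk2 was not measured, nor were Atf1, Pde4c and Itpr1 of the other lists. No gene of these lists was called between SSCs and BCSPs by limma, as for all probe sets. These genes serve many receptors besides those for prostanoids.

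Skeletal markers were active on all arrays for 7 of 8 measured genes, including Sox9 (99.7 to 100) and Col2a1 (92.0 to 98.3), and Pdpn was the exception. The share of all named genes was 25.0%. Of cells that could bring prostanoid receptors into a sort, macrophage (9 genes) and endothelial (8 genes) markers were below 0 on all arrays. Platelet markers were below 0 for 5 of 6 genes, the exception being Gp1bb. Smooth muscle and pericyte markers were below 0 on all arrays for 7 of 8, the exception being Cspg4.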

How the data were processed

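Gene expression of 4 SSC and 4 BCSP samples was measured on Affymetrix mouse arrays. The authors sorted cells into TRIzol, amplified the RNA 2 times, and had the scans normalized by the Gene Expression Commons platform. The deposited value is that platform's activity score. The sources used here do not state how probes were summarised. Of 45101 probe sets, 64 controls were left out, 34958 had 1 gene symbol in the platform annotation, 932 had several and 9211 were not listed. A gene was called active where its probe set with the highest mean scored above 0. The SSC against BCSP contrast was fitted in R 4.3.3 by limma 3.58.1, unblocked, with a mean-variance trend in eBayes, two-sided p-values and Benjamini-Hochberg adjustment over 45037 probe sets. The fits were also run on simulated scores with independent noise of equal SD for all probe sets. Spread differs between real probe sets, so those runs do not show what could be detected in these data. The number of arrays limits the precision. Members, lists and tests were chosen with earlier results of these data known. All members and all listed synthesis, transport and breakdown genes are named, those not measured among them, up to 4 genes with the highest mean of other lists, and the 3 genes most like Hpgd. Unmeasured genes of the lists downstream of the receptors are named as well.

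The BCSP array of experiment 2 is numbered 3 in its title and 2 in its description, and was taken as BCSP 2. The article dates the callus later than the labels do. After subtracting population means, arrays of the same number correlated at 0.394, 0.165, 0.605 and 0.173 in experiments 1 to 4. The highest correlation of each SSC array with a BCSP array of another number was -0.0346, 0.140, 0.00813 and 0.0584. In experiment 2 both values were close, so its pairing rests mainly on the labels. The experiment numbers of the labels were taken to pair the arrays. The labels do not say whether an experiment was 1 mouse or a pool, and the article's legend describes calluses from 4 mice.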

Additional observations from a re-analysis of the deposited data

How the results depend on the processing

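No member was called between SSCs and BCSPs under any alternative tried, which were the experiment as a replicate block, quantile normalization, centring on array medians, 2 filters on low scores, eBayes without trend, the methods' t-test, 1 probe set per gene, averaged probe sets, leaving out each array, and, added after seeing the data, leaving out both arrays of an experiment. The adjusted p stayed between 0.933 and 1. The filters left few members to test, 10 with a mean score above -50 and 3 above 0 on at least 4 arrays. With the replicate block 0 of 45037 probe sets were called and 2268 had an unadjusted p under 0.05, and with the methods' t-test 0 and 1094. Of 386 alternative values of the 21 differences, 348 kept their sign and 38, in 11 probe sets, turned it. Averaging a gene's probe sets gave -2.93 points for Hpgd, -2.48 for Slco2a1 and 9.05 for Ptger3, each opposite to the probe set with the highest mean. Over the fits that left out 1 array or 1 experiment, the differences that turned ranged from -15.2 to 3.05 for Tbxa2r 1419222_at, -2.70 to 6.42 for Hpgd 1419905_s_at, -21.3 to 4.28 for Hpgd 1419906_at, -11.2 to 25.6 for Ptgfr 1420349_at, -13.5 to 10.8 for Slco2a1 1420913_at, -10.4 to 8.02 for Slco2a1 1420914_at, -13.8 to 2.69 for Ptger4 1421073_a_at, -3.13 to 11.3 for Ptgfr 1440777_x_at, -5.01 to 11.8 for Slco2a1 1444242_at, -8.75 to 16.0 for Ptger1 1445445_s_at and -26.5 to 14.7 for Ptger3 1450344_a_at. The cause was not tested. Between experiments, quantile normalization called 2 members in place of 1. The counts of active members were the same under all alternatives run for them. With 4 arrays per population, standard errors were 8.96 to 21.6 points in the unblocked fit. These are not a limit of detection. That fit called no probe set, and differences well above them, such as -46.8 points for Ptgdr2, were not called either.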

Other observations

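In 42 sets of 4 arrays, the 21 member probe sets in each population, no single array stood apart from the other 3 by Dixon's criterion (gap over range above 0.829). With 4 values per set only a very large gap meets it, so discrepant arrays were not excluded. Ptgdr2 in BCSPs, at 58.6 in experiment 1 and -40.4, -18.6 and -12.3 in the others, was not flagged.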
